A study of Homo sapiens and Mus musculus with 18 samples.

Results

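The genes described here encode the subunits of the mitochondrial respiratory chain and of ATP synthase. They were taken from the expression tables of 2 lymphoma cell lines as the protein-coding rows whose symbol begins like a subunit of complexes I to V (NDUFA, B, C, S or V with a number, SDHA to SDHD, UQCR, COX4 to COX8, ATP5, or the MT-ND, MT-CO, MT-CYB and MT-ATP genes of the mitochondrial genome). This gave 93 of the 15069 rows of the human line BL41 and 90 of the 12264 rows of the mouse line J3D, and no measured value was used to choose them. In BL41, 80 are nuclear genes and 13 lie on the mitochondrial genome, and in J3D 78 and 12. The nuclear genes include 7 rows of BL41 and 4 of J3D that are not fixed subunits of a complex. Counts and medians of nuclear subunits below include these rows. The symbol of the mouse cytochrome b gene, mt-Cytb, does not match this pattern, and its values are given separately. A further 14 rows of BL41 and 1 of J3D had a fitting symbol without the protein-coding class and were left out.

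The labels give both lines as Burkitt lymphoma at passage 5 to 10, and each group is 3 libraries of 1 line. All cells were grown in the same serum-containing medium and resuspended 6 h before exposure. The 3 groups of each line were a sham group, left at room temperature outside the incubator in the meantime, an X-ray group (5 Gy, accelerator of 6 MV) and a proton group (5 Gy, scanned beam). For the protons, beam energies were between 129.3 and 148.2 MeV/u and the linear energy transfer was between 2.9 and 7.9 keV/µm, with a median of 3.5, in the central part of the spread-out Bragg peak. RNA was taken 12 h after exposure.

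In mitochondria, complex I (NADH dehydrogenase) and complex II (succinate dehydrogenase) pass electrons to ubiquinone, complex III (cytochrome bc1) passes them on to cytochrome c, and complex IV (cytochrome c oxidase) gives them to oxygen. Complexes I, III and IV pump protons across the inner membrane, and ATP synthase, complex V, uses the gradient to make ATP. Most subunits are nuclear genes, each with its own promoter, whereas a few core subunits of complexes I, III, IV and V are transcribed inside the organelle from the mitochondrial DNA as long precursors that are then cut. Genes of that genome therefore share their source, and their values are not independent of each other.

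All values are log2 expression relative to a baseline. Judging by the values, it was set per gene within each replicate number. A library can thus be read as above or below another for the same gene, and no gene can be compared with another in level. Sequencing depth is unknown. The fold changes are on the log2 scale with the standard error after ±, and n is 3 libraries per group throughout. A gene is called where limma's Benjamini-Hochberg adjusted p, over all rows of its line, is under 0.05. In BL41 the median of all rows lay 0.093 above 0 after X-rays and 0.120 above 0 after protons, and −0.010 and 0.004 with trimmed-mean centring. In J3D these medians were 0.002 and 0.046. Of 8 listed B-cell markers, BL41 held 8 and J3D held 1 (Cd22). Of the markers of T and NK cells, myeloid cells, and erythroid or stromal cells, 8 of each kind listed, BL41 held 3, 2 and 2 and J3D held 0, 2 and 4. The only marker called was CD163, a macrophage receptor, in BL41 after X-rays (0.64 ± 0.15, limma adjusted p = 0.0456). Tissue identity beyond these relative values could not be checked, since the tables hold no levels. In J3D the libraries of number 1 spread more widely than the others (interquartile range of all rows 0.342 to 0.395 against 0.139 to 0.238).

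The genes of the mitochondrial genome gave the largest displacement of any group of subunits in J3D. All 12 had a mean above sham after both beams, with a median fold change of 0.74 after X-rays (range 0.55 to 1.06) and 0.86 after protons (0.33 to 1.05). Over the 78 nuclear subunits the medians were −0.03 and −0.01. None of the 12 was called, and no row of J3D was: the background was 0.0% in both comparisons, the lowest limma adjusted p of any row was 0.441 after X-rays and 0.206 after protons, and 765 and 2425 rows had an unadjusted p under 0.05. Both comparisons use the same sham libraries.

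Of these genes, mt-Atp8 encodes a small membrane subunit of ATP synthase. Its values were −0.75, −0.54 and −0.95 in the sham libraries 1 to 3, −0.11, 0.40 and 0.64 in the X-ray libraries, and 0.36, 0.08 and −0.08 in the proton libraries. Every irradiated library lay above every sham library, and the fold changes were 1.06 ± 0.22 (limma adjusted p = 0.508) and 0.87 ± 0.22 (limma adjusted p = 0.247). Its neighbour mt-Atp6, whose reading frame overlaps that of mt-Atp8 so that reads may not be separable, encodes the subunit that forms the proton channel with the c-ring. It was at −0.69, −0.45 and −0.56 in sham, −0.11, 0.37 and 0.42 after X-rays and 0.45, 0.12 and −0.10 after protons, again without overlap with sham. The fold changes of mt-Atp6 were 0.79 ± 0.18 and 0.73 ± 0.18.

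The 3 mitochondrial genes of complex IV form its catalytic core. In mt-Co3 the sham libraries were at −0.23, −0.27 and −0.42, the X-ray libraries at 0.08, 0.24 and 0.41 and the proton libraries at 0.12, 0.08 and −0.11. All irradiated libraries lay above sham, and mt-Co3 had the smallest unadjusted p of the 12 after X-rays (0.000275, limma adjusted p = 0.498), with fold changes of 0.55 ± 0.10 and 0.33 ± 0.10. In mt-Co1, which carries the oxygen-binding site, sham was at −0.27, −0.42 and −0.35, X-rays at −0.11, 0.39 and 0.37 and protons at 0.11, 0.09 and −0.03. Its groups did not overlap with sham either, and the fold changes were 0.56 ± 0.13 and 0.40 ± 0.13. In mt-Co2, which receives electrons from cytochrome c, X-ray library 1 (−0.41) fell within the sham range of −0.64 to −0.37, while the proton libraries (0.04 to 0.48) lay above it.

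The 7 mitochondrial genes of complex I encode its proton-pumping membrane arm. Their fold changes ran from 0.59 (mt-Nd3) to 0.79 (mt-Nd4) after X-rays and from 0.84 (mt-Nd3) to 1.05 (mt-Nd4l) after protons. For mt-Nd1, sham was at −1.25, −0.37 and −0.51, X-rays at −0.27, 0.37 and −0.04 and protons at 0.73, 0.12 and 0.01. Sham library 1 was by far the lowest of the 9 and proton library 1 the highest. For mt-Nd4l, sham was at −0.97, −0.68 and −0.62, X-rays at −0.71, 0.61 and 0.15 and protons at 0.62, 0.13 and 0.14. X-ray library 1 of mt-Nd4l lay within the sham range and all proton libraries lay above it; reads of mt-Nd4l may not be separable from those of the overlapping mt-Nd4. For mt-Nd6, the one subunit gene on the other strand, sham was at −0.75, −0.64 and −0.59, X-rays at −0.52, 0.53 and 0.23 and protons at 0.50, 0.16 and 0.07. Every irradiated library was above sham for mt-Nd6, with fold changes of 0.75 ± 0.26 and 0.91 ± 0.26 (limma adjusted p = 0.648 and 0.247). As the strand setting is not given, reads of mt-Nd6 may not be separable from those of the opposite strand. The gene mt-Cytb of complex III, counted outside the 12, was at −0.80, −0.58 and −0.58 in sham, −0.65, 0.51 and 0.19 after X-rays and 0.61, 0.12 and 0.02 after protons, with fold changes of 0.67 ± 0.30 and 0.90 ± 0.30.

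**Figure D1:**
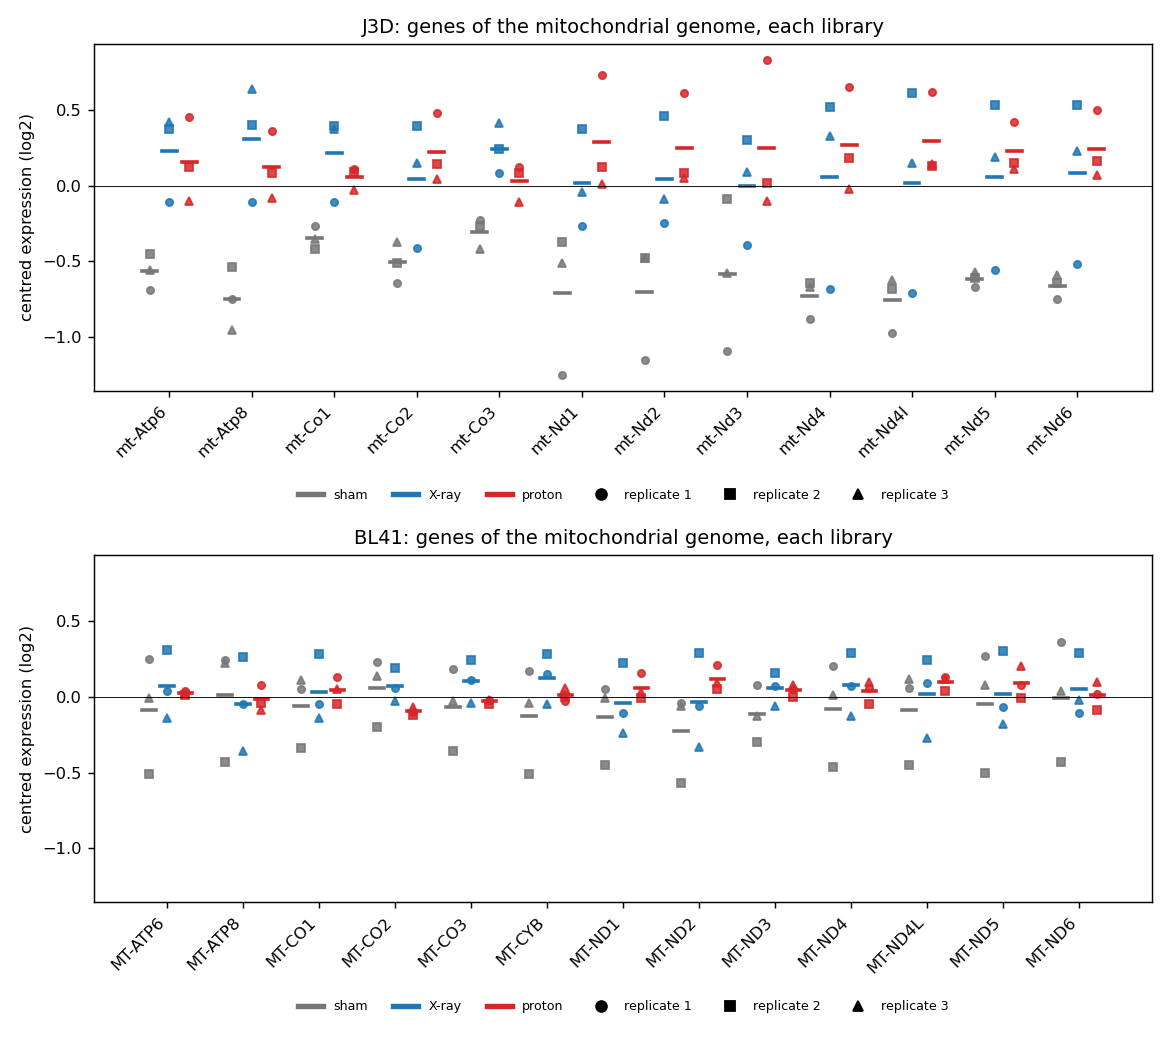
Centred expression (log2) of each mitochondrial-genome gene in every library of J3D (top) and BL41 (bottom), with 3 points per condition marked by replicate number and a bar at the group mean. In J3D the sham libraries are the lowest group for all 12 genes. There X-ray library 1 is within the sham range for mt-Nd3, mt-Nd4, mt-Nd4l and mt-Co2, and proton library 3 is within it for mt-Nd3. In BL41 sham library 2 is the lowest for all 13 genes. The BL41 groups overlap except for MT-ND2 (protons above sham) and MT-CO2 (protons below X-rays).

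The median of the 12 J3D genes was −0.751, −0.492 and −0.568 in the sham libraries, −0.327, 0.397 and 0.211 after X-rays and 0.492, 0.121 and −0.003 after protons. In the sham libraries 98.6 to 99.2% of all rows had a value at or above this median, while the median of the nuclear subunits stayed between −0.052 and 0.047 in all 9 libraries. No library overlapped with sham in 8 of the 12 genes after X-rays (background 4.62% of rows in that direction) and in 11 after protons (background 24.4%). An unadjusted p under 0.05 was reached by 11 of the 12 after X-rays (background 3.42%) and by 12 after protons (background 11.1%). With the replicate number as a block these counts were 7 (background 1.93%) and 12 (background 5.17%).

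Within each number, all 12 genes were above the sham library of the same number after both beams. The median difference was 0.284, 0.917 and 0.765 in numbers 1 to 3 after X-rays and 1.196, 0.602 and 0.527 after protons. Without the libraries of number 1 the median fold changes were 0.84 and 0.53, so that the size after protons rested in part on number 1. In 19 alternative fits per comparison all 12 stayed above 0, between 0.34 and 1.27 after X-rays and between 0.28 and 1.26 after protons. None was called in any of them (lowest limma adjusted p = 0.153 and 0.093). Several of these fits could not move a fold change here: the block, moderation without trend or robustness, leaving out tied rows and 1 row per symbol.

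In BL41 the irradiated libraries overlapped with sham in the same genes, with MT-ND2 after protons as the exception. The median of its 13 mitochondrial genes was 0.177, −0.446 and 0.011 in the sham libraries, 0.043, 0.282 and −0.139 after X-rays and 0.062, −0.010 and 0.061 after protons. Sham library 2 was the lowest and X-ray library 2 the highest of the 9, and the genes moved together from library to library. The 13 fold changes ran from −0.06 (MT-ATP8) to 0.25 (MT-CYB) after X-rays and from −0.15 (MT-CO2) to 0.34 (MT-ND2) after protons, with 0 called. Their medians of 0.111 and 0.120 were close to those of all rows (0.093 and 0.120). MT-CYB, the only complex III gene of this genome, was at 0.17, −0.51 and −0.04 in sham, 0.15, 0.28 and −0.05 after X-rays and −0.03, −0.00 and 0.06 after protons (0.25 ± 0.16 and 0.14 ± 0.16).

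For MT-ND2 the sham libraries were at −0.04, −0.57 and −0.06, those after X-rays at −0.06, 0.29 and −0.33, and those after protons at 0.21, 0.05 and 0.09. It was the 1 gene of the 13 whose proton libraries all lay above sham (background 28.0% of rows), with limma adjusted p = 0.242. Within numbers the direction differed: after X-rays the median difference of the 13 was −0.129, 0.694 and −0.167 in numbers 1 to 3, and after protons −0.165, 0.410 and 0.046. The table of BL41 also holds 10 rows of nuclear pseudogenes that resemble mitochondrial genes and could share their reads. The median of these rows was lowest in sham library 2 as well (−0.332). It was highest in proton library 1 (0.160), with X-ray library 2 at 0.125. The fold changes of these rows ran from −0.89 to 0.50 after X-rays and from −1.09 to 0.73 after protons. The J3D and BL41 tables were normalized separately, so the lines are set side by side and their difference was not tested.

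**Figure D2:**
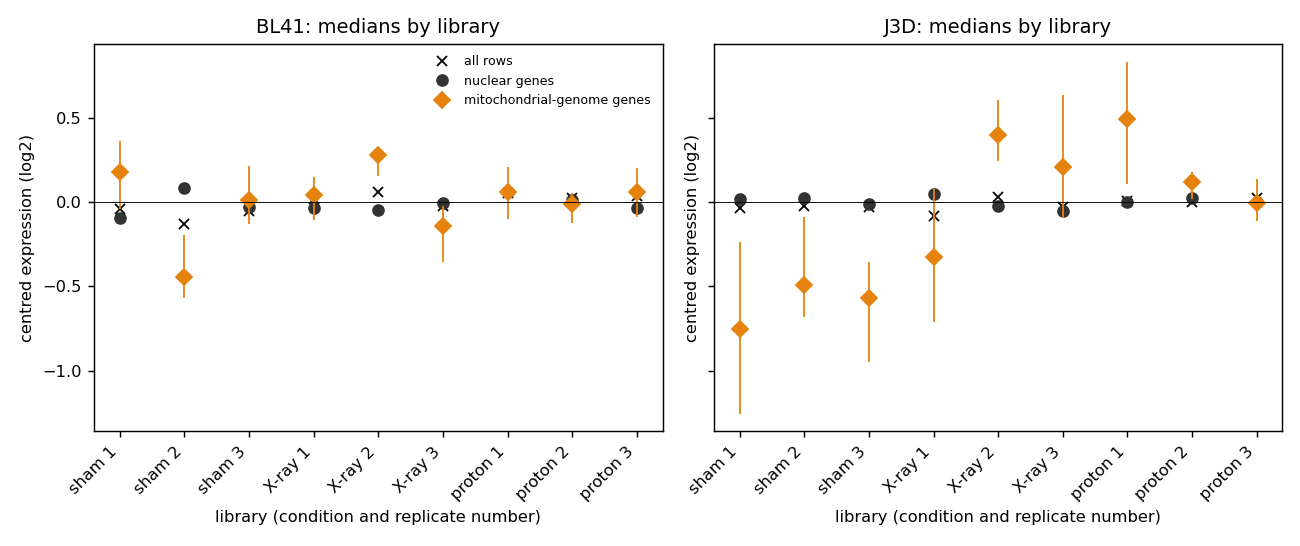
Median centred expression (log2) per library of all rows (crosses), of the nuclear subunit genes (circles) and of the mitochondrial-genome genes (diamonds, with a line from the lowest to the highest gene), for BL41 (left) and J3D (right). The nuclear medians stay near 0 in both lines, while the mitochondrial median of J3D is between −0.751 and −0.492 in sham and above −0.33 in every irradiated library.

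Among the nuclear genes of BL41, 3 were called, all higher than sham. SDHC was among them after both beams, and NDUFA9 after protons. After X-rays 2 of 80 were higher (background 4.83% of all rows) and 0 lower (background 0.518%). After protons 3 of 80 were higher (background 5.91%) and 0 lower (background 0.903%). The shares of nuclear subunits called thus did not exceed the background, and the counts are too small to read a difference from it. With the replicate number as a block no row of BL41 was called, and with trimmed-mean centring no subunit was.

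SDHC (ENSG00000143252) encodes a membrane anchor of succinate dehydrogenase, the part that binds haem and ubiquinone. It was at −0.27, −0.27 and −0.24 in the sham libraries, 0.13, 0.09 and 0.05 after X-rays and 0.14, 0.19 and 0.09 after protons. All 6 irradiated libraries lay above 0 and all sham libraries below, without overlap. SDHC rose by 0.35 ± 0.06 after X-rays (limma adjusted p = 0.0214) and by 0.40 ± 0.06 after protons (limma adjusted p = 0.0167); with the block the unadjusted p was 0.00268 and 0.00118. With trimmed-mean centring the fold changes were 0.25 and 0.28 (limma adjusted p = 0.0763 and 0.0539). Leaving out single libraries kept the call in 5 of 9 fits after X-rays and in 6 of 9 after protons (adjusted p up to 0.0921 and 0.106).

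NDUFA9 (ENSG00000139180) encodes an accessory subunit of complex I that binds a nicotinamide nucleotide. It was at −0.38, −0.12 and −0.21 in sham, −0.08, −0.06 and −0.10 after X-rays and 0.23, 0.12 and 0.10 after protons. Sham, X-ray and proton libraries formed 3 separate ranges in rising order. NDUFA9 rose by 0.39 ± 0.10 after protons (limma adjusted p = 0.0472; unadjusted p with the block 0.0146) and was at 0.15 ± 0.10 after X-rays (limma adjusted p = 0.367). The call after protons was kept in 1 of 9 fits with a library left out, and with trimmed-mean centring the fold change was 0.27 (limma adjusted p = 0.179).

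Neither mouse counterpart was called. Sdhc was at 0.12, 0.21 and −0.01 in sham, 0.23, −0.04 and −0.00 after X-rays and −0.24, −0.10 and −0.08 after protons, so that its proton libraries lay below sham (−0.25 ± 0.10, limma adjusted p = 0.247). Ndufa9 had fold changes of 0.00 ± 0.07 and 0.08 ± 0.07, and its proton libraries lay above sham by a small margin.

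**Figure D3:**
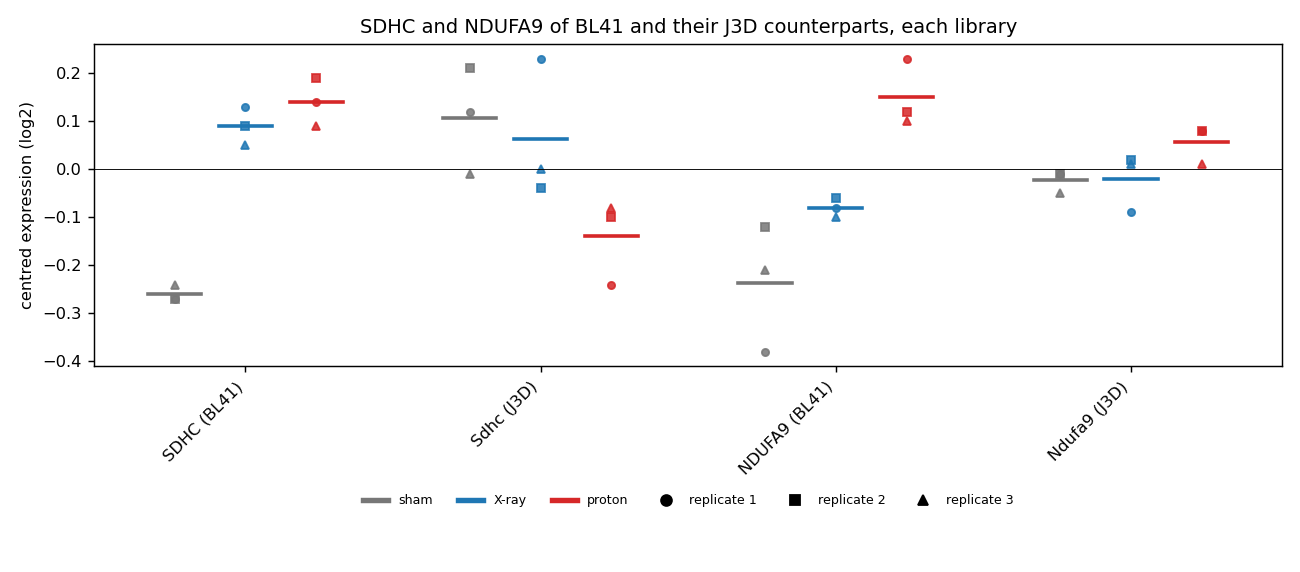
Centred expression (log2) in each library of SDHC and NDUFA9 in BL41 and of their counterparts in J3D, with points marked by replicate number and bars at the group means. In BL41 the sham libraries are the lowest of each gene (−0.38 to −0.12), whereas in J3D the proton libraries lie below sham for Sdhc and above it for Ndufa9.

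The promoters of the nuclear subunits are known for sites of the activators NRF1, GABP (an ETS factor) and YY1. Of the 80 nuclear rows of BL41, 64 genes matched a RefSeq promoter window (GRCh38.p14, 250 bases before to 50 after the start). A gene with several starts was counted once, with a match in any of its windows. A core of the NRF1 site, searched on both strands as the following motifs were, was found for 23.4% of these genes. Over all 27305 genes with a window the share was 6.98%. CCGGAAG (ETS core) was in 31.2% against 12.2%, and AAGATGGC (YY1 core) in 17.2% against 3.52%. Against protein-coding genes only, the shares to compare were 9.67%, 16.5% and 4.66%. These 3 patterns do not contain one another, and a match describes the letters, not a bound site.

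2 of these windows are shown, that of NDUFA9, which was called, and that of ATP5I, the nuclear ATP synthase gene with the lowest fold changes in BL41. Both hold the NRF1 core, in capitals, and are printed from base 250 to base 71 before the start, 5′ to 3′ on the gene's strand (NDUFA9, chr12:4648864-4649043, plus strand; ATP5I, chr4:674347-674526, minus strand).
NDUFA9: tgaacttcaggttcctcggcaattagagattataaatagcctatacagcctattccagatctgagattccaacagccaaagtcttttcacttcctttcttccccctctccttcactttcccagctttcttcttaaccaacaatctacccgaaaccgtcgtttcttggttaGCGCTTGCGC
ATP5I: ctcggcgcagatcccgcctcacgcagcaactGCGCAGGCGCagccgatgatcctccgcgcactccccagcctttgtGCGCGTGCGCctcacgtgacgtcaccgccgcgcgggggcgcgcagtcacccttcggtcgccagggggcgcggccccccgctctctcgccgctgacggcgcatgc
The NDUFA9 window also holds the YY1 core just after the start, and the ATP5I window the ETS core. The factor NRF1 itself is among the regulators counted further on.

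**Figure D4:**
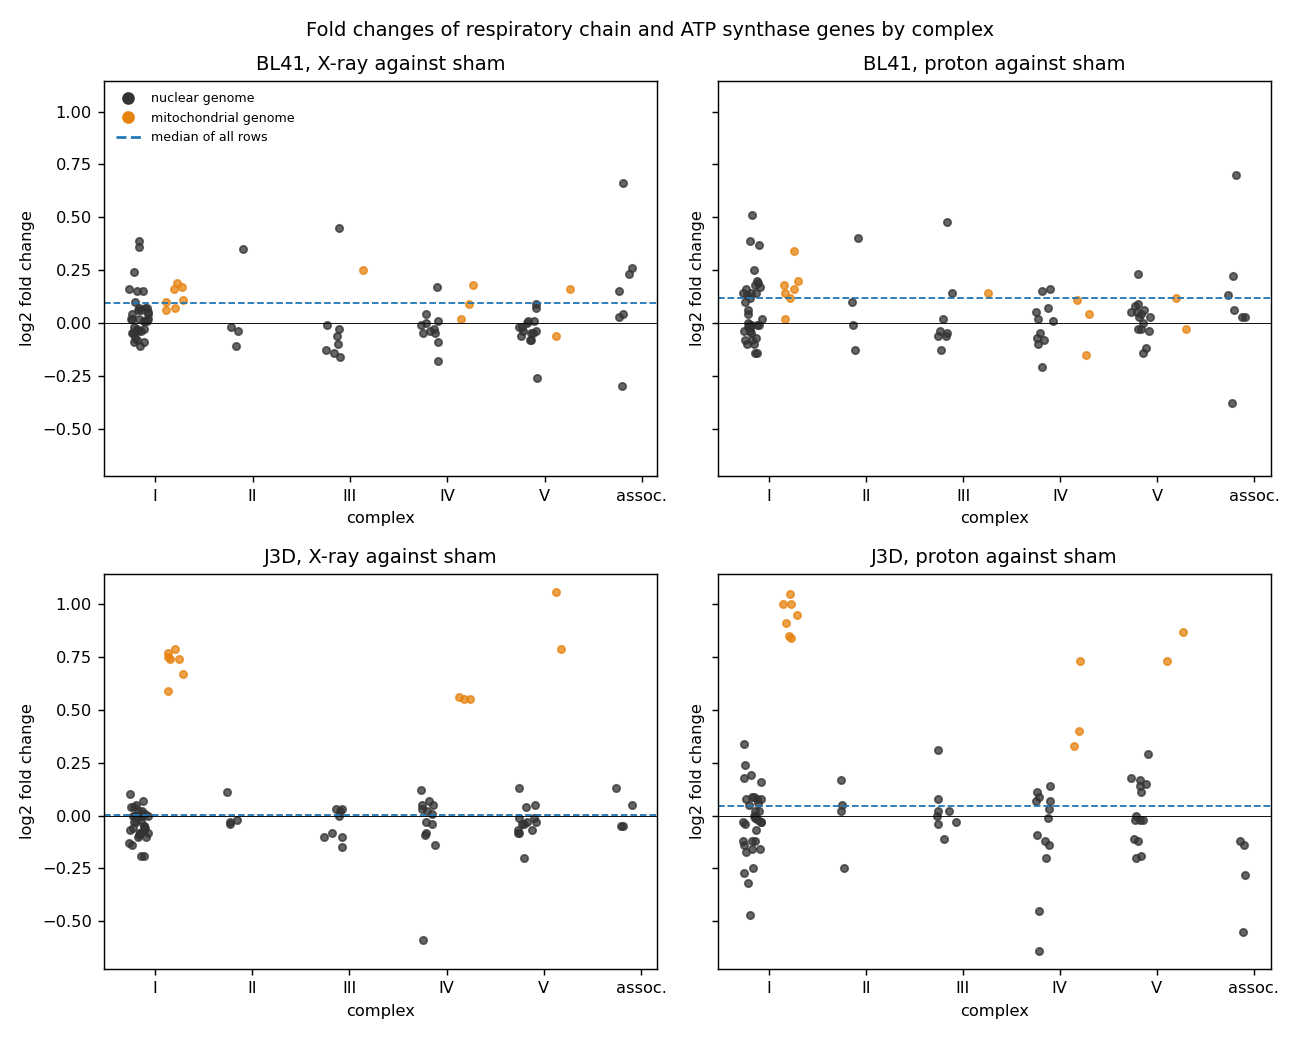
Log2 fold change against sham of every subunit gene by complex (assoc., rows associated with no single complex or read through from a neighbour), for BL41 (top) and J3D (bottom) and for X-rays (left) and protons (right); black points are nuclear genes, orange points mitochondrial-genome genes, and the dashed line is the median of all rows. Nuclear genes of BL41 sit mostly under the dashed line, and the mitochondrial genes of J3D stand between 0.33 and 1.06.

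The nuclear subunits of BL41 lay below the median of all rows. Trimmed-mean centring subtracts the same value from every row of a library, so it cannot change this gap. Which of the medians was nearer to sham depended on the scaling. In the deposited values their median fold change was −0.012 after X-rays and 0.025 after protons, against 0.093 and 0.120 over all rows, and 14 and 23 of 80 were above the median of all rows. Relative to that median they were at −0.105 and −0.095. With trimmed-mean centring the nuclear medians were −0.114 and −0.091 and those of all rows −0.010 and 0.004, so that here the subunits were farther from sham than the rows as a whole. In J3D the nuclear median was −0.029 and −0.013 against 0.002 and 0.046. After X-rays all 3 libraries lay above sham in 7 of the 80 nuclear genes of BL41 (background 21.6%) and below sham in 5 (background 4.61%), and after protons in 8 (background 28.0%) and 2 (background 6.52%). In J3D these counts were 2 (background 4.62%) and 3 (background 5.18%) of 78 after X-rays and 16 (background 24.4%) and 18 (background 14.2%) after protons.

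In complex I, 35 nuclear genes were measured in each line, and the medians were 0.018 and 0.024 in BL41 and −0.031 and −0.013 in J3D. NDUFA6 of BL41 is an accessory subunit with an annotated antisense gene whose reads cannot be told apart without strand. It was at −0.55, −0.08 and −0.08 in sham, 0.56, 0.18 and −0.35 after X-rays and 0.14, 0.19 and 0.08 after protons. The X-ray libraries held the highest value of the 9 and the second lowest, and neither fold change was called (0.36 ± 0.21 and 0.37 ± 0.21). NDUFV3, a subunit of the NADH-binding module, was at −0.18, −0.20 and −0.23 in sham, −0.07, 0.08 and 0.08 after X-rays and 0.14, 0.05 and −0.04 after protons. All irradiated libraries were above sham (0.24 ± 0.08 and 0.25 ± 0.08, limma adjusted p = 0.119 and 0.0855). At the low end stood NDUFB4, a subunit of the membrane arm, with 0.05, 0.09 and 0.04 in sham, −0.08, −0.01 and 0.00 after X-rays and −0.05, −0.06 and −0.14 after protons. Its irradiated libraries were all below sham by a small margin (−0.09 ± 0.06 and −0.14 ± 0.06).

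In J3D the highest nuclear complex I gene was Ndufa5, a subunit of the peripheral arm, with −0.30, −0.13 and −0.07 in sham, −0.36, 0.10 and −0.21 after X-rays and 0.43, 0.06 and 0.04 after protons. Its proton libraries were above sham and its X-ray libraries spread across it (0.34 ± 0.15, limma adjusted p = 0.249, and 0.01 ± 0.15). The lowest was Ndufv3, at 0.42, 0.23 and 0.24 in sham, 0.51, −0.25 and 0.21 after X-rays and −0.43, −0.03 and −0.05 after protons. Its proton libraries were all below sham (−0.47 ± 0.22, limma adjusted p = 0.257), while the X-ray libraries held both the highest and the second lowest value of the 9. In the other line, NDUFA5 was at 0.06 ± 0.09 and 0.16 ± 0.09, and Ndufb4 of J3D at 0.00 ± 0.10 and 0.05 ± 0.10.

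Of the 4 genes of complex II, the catalytic subunit SDHA, which holds the flavin, was at 0.15, 0.00 and 0.06 in BL41 sham, 0.05, 0.00 and 0.03 after X-rays and −0.09, 0.01 and −0.10 after protons. The groups overlapped (−0.04 ± 0.07 and −0.13 ± 0.07). The iron-sulphur subunit SDHB had −0.02 ± 0.08 and 0.10 ± 0.08, and the second membrane anchor SDHD had −0.11 ± 0.08 and −0.01 ± 0.08. SDHD stands on a further line of the BL41 table that is not classed as protein-coding, and that line was called higher after both beams (0.98 ± 0.18, limma adjusted p = 0.0253, and 0.85 ± 0.18, limma adjusted p = 0.0347). Averaged over both lines SDHD would be at 0.436 and 0.421. In J3D, Sdhd was at −0.09, −0.07 and −0.17 in sham, −0.05, 0.03 and 0.04 after X-rays and 0.09, 0.09 and 0.01 after protons. Every irradiated library was above sham, by small amounts (0.11 ± 0.07 and 0.17 ± 0.07). Sdha and Sdhb of J3D were between −0.03 and 0.05 in both comparisons.

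Complex III had 8 nuclear genes in each line. In BL41, 7 of the 8 were below 0 after X-rays and 5 after protons, with medians of −0.081 and −0.045. The 1 above 0 after X-rays was UQCR11, a small accessory subunit, at −0.33, −1.32 and 0.19 in sham, −0.56, 0.50 and −0.04 after X-rays and 0.27, −0.02 and −0.29 after protons. Sham library 2 stood far below the others and the standard error was the widest of the 8 (0.45 ± 0.43 and 0.48 ± 0.43). UQCRH, the hinge protein that faces cytochrome c, was at 0.08, 0.22 and −0.02 in sham, −0.06, −0.12 and −0.03 after X-rays and −0.07, −0.07 and 0.03 after protons. Its X-ray libraries lay just below sham (−0.16 ± 0.08, limma adjusted p = 0.240) and its proton libraries overlapped it (−0.13 ± 0.08).

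In J3D the complex III medians were −0.038 and 0.008. Uqcrb, which helps to hold the ubiquinone site, was at −0.24, −0.18 and −0.06 in sham, −0.30, 0.05 and −0.16 after X-rays and 0.29, 0.08 and 0.07 after protons. Its proton libraries were above sham (0.31 ± 0.12, limma adjusted p = 0.247) and its X-ray libraries overlapped it (0.02 ± 0.12). Uqcrq was the lowest, at −0.15 ± 0.10 and −0.11 ± 0.10. The counterparts were near 0, with UQCRB at −0.13 ± 0.09 and −0.06 ± 0.09, UQCRQ at −0.03 ± 0.10 and 0.02 ± 0.10, Uqcr11 at −0.10 ± 0.08 and 0.02 ± 0.08, and Uqcrh at 0.03 ± 0.08 and 0.02 ± 0.08.

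Complex IV had 11 nuclear genes in BL41 and 13 in J3D. In BL41 the medians were −0.026 and 0.014, between COX5A, a subunit on the matrix side (0.17 ± 0.13 and 0.15 ± 0.13), and COX8A, a small membrane subunit (−0.09 ± 0.12 and −0.21 ± 0.12). COX5A was at −0.26, −0.03 and −0.13 in sham, −0.06, −0.11 and 0.26 after X-rays and 0.08, 0.14 and −0.21 after protons, and COX8A also overlapped between groups. In J3D the lowest subunit of all was Cox6a2, the form of subunit 6a found in heart and skeletal muscle. It was at 0.42, 0.18 and 0.78 in sham, 0.15, −0.23 and −0.32 after X-rays and −0.20, −0.13 and −0.22 after protons. Every irradiated library was below every sham library, and the fold changes were −0.59 ± 0.17 (limma adjusted p = 0.622) and −0.64 ± 0.17 (limma adjusted p = 0.247). An unadjusted p of 0.00575 and 0.00345 went with them.

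Cox8a of J3D was at 0.30, 0.23 and 0.14 in sham, 0.34, −0.07 and 0.13 after X-rays and −0.36, −0.13 and −0.20 after protons. The proton libraries were below both other groups, with −0.45 ± 0.13 against sham (limma adjusted p = 0.247) and −0.09 ± 0.13 for X-rays against sham. Cox5a was at 0.05 ± 0.08 and 0.14 ± 0.08. The remaining nuclear complex IV genes of J3D kept the median at 0.013 and −0.014.

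Complex V had 15 nuclear genes in BL41 and 14 in J3D. In BL41 its medians were −0.036 and 0.034, and 0 of the 15 after X-rays and 1 after protons was above the median of all rows. ATP5I, a small subunit of the membrane part whose promoter is printed above, was at 0.01, 0.28 and 0.10 in sham, −0.18, −0.09 and −0.11 after X-rays and 0.05, −0.02 and −0.06 after protons. Its X-ray libraries were all below sham (−0.26 ± 0.08, limma adjusted p = 0.10), and its proton libraries overlapped sham (−0.14 ± 0.08). The highest was ATP5G1, 1 of 3 genes with the same mature c-ring protein, at −0.34, −0.01 and 0.03 in sham, −0.32, 0.07 and −0.17 after X-rays and 0.31, 0.05 and 0.01 after protons (−0.04 ± 0.14 and 0.23 ± 0.14).

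In J3D the complex V medians were −0.035 and −0.008. Atp5g3, another c-ring gene, was the highest (0.05 ± 0.14 and 0.29 ± 0.14), with sham at −0.34, −0.00 and −0.09 and proton libraries at 0.40, 0.04 and 0.01, all above sham. Atp5d, the delta subunit of the catalytic head's stalk, was the lowest (−0.07 ± 0.11 and −0.20 ± 0.11), with sham at 0.07, 0.18 and 0.12 and proton libraries at −0.11, −0.08 and −0.03, all below sham. Their counterparts ATP5G3 (−0.08 ± 0.06 and −0.04 ± 0.06) and ATP5D (0.09 ± 0.09 and −0.12 ± 0.09) and the mouse Atp5g1 (−0.20 ± 0.16 and 0.18 ± 0.16) were not called.

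A further 7 rows in BL41 and 4 in J3D carry a fitting symbol without being a fixed subunit of a complex. They include NDUFA4L2, a hypoxia-induced relative of NDUFA4, COX7A2L, which takes part in supercomplexes, the readthrough rows NDUFC2-KCTD14 and ATP5J2-PTCD1, which share reads with their component genes, and COX6A1P2, a copy of COX6A1. In BL41, NDUFC2-KCTD14 ran from −1.39 to 0.77 over the 9 libraries, with a tie at the lowest value, and NDUFA4L2 from −0.38 to 0.76. In J3D, Ndufa4l2 was at 0.26, 0.05 and 0.41 in sham, 0.83, −0.12 and 0.14 after X-rays and −0.67, 0.01 and −0.27 after protons. Its proton libraries were below sham (−0.55 ± 0.25, limma adjusted p = 0.253) and all 4 such rows of J3D were below 0 after protons, with a median of −0.210.

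Protons were also set against X-rays in each line. No row was called in either line (background 0.0%); in limma 1779 rows of BL41 and 1456 of J3D had an unadjusted p under 0.05. Among them were 1 nuclear subunit of 80 in BL41, higher after protons (background 6.26% higher and 5.54% lower), and in J3D 5 higher and 2 lower of 78 (background 6.17% and 5.70%). The smallest p belonged to NDUFA9 in BL41, higher after protons by 0.23 ± 0.10 (limma adjusted p = 0.414), and to Cox8a in J3D, at −0.36 ± 0.13 (limma adjusted p = 0.392). In both genes the proton libraries did not overlap with the X-ray libraries. The mitochondrial genes of J3D had a median difference of 0.175, which was 0.937 in number 1, −0.311 in number 2 and −0.180 in number 3. All 7 mitochondrial genes of complex I had a mean above 0 in this comparison, while both of complex V and 2 of 3 of complex IV had a mean below 0.

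Genes that build or serve the chain were counted as lists. Of 48 assembly factors, 41 were measured in BL41; 1 was called higher after X-rays (background 4.83%) and 4 after protons (background 5.91%), with medians of 0.053 and 0.136 against 0.093 and 0.120 over all rows. TIMMDC1, a complex I assembly factor, was called after both beams (0.32 ± 0.07, limma adjusted p = 0.0301, and 0.28 ± 0.07, 0.0400). NDUFAF1, also for complex I, BCS1L and LYRM7, which help to insert the Rieske protein into complex III, were called after protons (0.35 ± 0.09, 0.62 ± 0.16 and 0.42 ± 0.08; limma adjusted p = 0.0480, 0.0479 and 0.0295). Of 16 subunits and carriers that the symbol pattern leaves out, 12 were measured and 1 was called higher (background 5.91%), ETFDH, which feeds electrons from fatty acid oxidation to ubiquinone (0.30 ± 0.07 after protons, limma adjusted p = 0.0347).

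Of 29 genes of mitochondrial genome expression, 25 were measured in BL41 on 26 rows. After X-rays 0 rows were called higher (background 4.83%) and after protons 2 (background 5.91%), with medians over the rows of −0.032 and 0.173. These were TFB1M, a methyltransferase of the mitochondrial ribosomal RNA (0.37 ± 0.08, limma adjusted p = 0.0387), and KIAA0391, the nuclease of mitochondrial RNase P (0.35 ± 0.08, 0.0352). KIAA0391 stands on 2 rows, and the other was not called (0.36 ± 0.16, limma adjusted p = 0.190). Of 25 genes of the citric acid cycle and pyruvate dehydrogenase 23 were measured, with medians of 0.038 and 0.123, and 1 was called higher after protons (background 5.91%), SUCLG2, a subunit of succinyl-CoA ligase (0.29 ± 0.07, limma adjusted p = 0.0480).

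Of 12 regulators of mitochondrial biogenesis 11 were measured in BL41, with medians of −0.020 and 0.132, and 1 was called, NRF1, lower after X-rays (background 0.518%) and after protons (background 0.903%). NRF1 was at 0.38, 0.23 and 0.47 in sham, −0.03, −0.01 and −0.30 after X-rays and −0.20, −0.13 and −0.08 after protons. All irradiated libraries lay below sham, and NRF1 fell by 0.48 ± 0.11 (limma adjusted p = 0.0439) and by 0.50 ± 0.11 (limma adjusted p = 0.0376). In J3D, Nrf1 was at 0.25, 0.23 and 0.33 in sham, −0.13, −0.12 and −0.09 after X-rays and −0.09, 0.06 and 0.02 after protons, likewise below sham in all irradiated libraries without being called (limma adjusted p = 0.622 and 0.247). Whether NRF1 and the subunit genes are connected here was not tested. All calls among these lists of BL41 were lost with the replicate number as a block.

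In J3D none of the listed genes was called. Medians after X-rays and protons were 0.030 and −0.024 for 39 assembly factors, 0.001 and 0.055 for 24 genes of mitochondrial genome expression, −0.015 and 0.030 for 23 of the citric acid cycle, −0.130 and 0.077 for 11 regulators and −0.017 and 0.030 for 12 left-out subunits and carriers, against 0.002 and 0.046 over all rows. Over the 12 mitochondrial-genome genes they were 0.738 and 0.859.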

How the data were processed

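Total RNA of 18 libraries (3 per group and line) was sequenced. The submitters' processing notes name TopHat2, hg19 and mm10. Not given in the sources used here are the counting tool, the annotation, the strand setting and the normalization. Deposited for each line was a set of centred logarithmic expression values. The authors' base is not named and log2 was assumed; with another base every fold change would be rescaled, with no effect on a test. From the values, the authors had centred every gene, number by number, on a mean of 4 libraries (3 analysed here), so no absolute level, per-length level or sequencing depth can be had.

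Each line was fitted separately with limma 3.58.1 in R 4.3.3 (statmod 1.5.0): 1 mean per group over 9 libraries, trended and robust variance moderation, Benjamini-Hochberg adjustment over all rows and a threshold of 0.05. No value was filtered and no pseudocount was added. The number was no term of this fit. Because the centring had removed a mean per number, the fit counts 6 residual degrees of freedom where a fit blocked by number has 4, and its p-values are too small. Same-numbered libraries correlated at −0.73 to 0.31 over all rows after removal of group means, a range that the centring biases, and the labels do not say what a number marks. They also do not say that libraries came from separate cultures, so p-values measure the spread between these libraries, which may be technical. Tables and plots used Python 3.11.15, numpy 2.4.6, pandas 2.3.3 and matplotlib 3.10.9. Promoter windows were RefSeq's on GRCh38.p14.

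Genes, lists and tests were chosen with earlier results of these data known. Genes were named by rule: those past the threshold in either line, all of the mitochondrial genome, all 4 of complex II, and in the other complexes the nuclear gene with the highest and the lowest mean of its fold changes in each line, each with its counterpart in the other line. Of the genes so named, 1 is not reported here. For protons against X-rays the gene with the smallest p per line was named. The genes of the lists, those flagged between lines and others at the end of a range were named after their values were seen. Alternatives were the number as a block, trimmed-mean centring of libraries (10% at each end), quantile normalization, moderation without trend or robustness, leaving out rows tied at the lowest value, 1 row per symbol and leaving out each library. Leaving out all libraries of a number, and the block together with trimmed-mean centring, were added after seeing the data.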

Additional observations from a re-analysis of the deposited data

Results flagged for a closer look

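In 5 subunit genes of complexes I and II the lines moved apart: after the beam named, every library of BL41 lay above every sham library, and every library of J3D lay below every sham library. The tables were normalized separately, and these differences between the lines were not tested. Over all 8296 symbols on 1 row in each table the same pattern held for 1.21% after X-rays and 4.30% after protons, against 1 and 4 of 84 subunits (1.19% and 4.76%), so the subunits were near the share of all rows. After X-rays this held for NDUFS8, an iron-sulphur subunit of complex I, with a fold change of 0.15 in BL41 and −0.19 in J3D. After protons it held for NDUFV1, which binds NADH (0.17 and −0.16), SDHC (0.40 and −0.25), NDUFA6 (0.37 and −0.16) and NDUFV3 (0.25 and −0.47). Of these 10 values only that of SDHC in BL41 was called by limma, and the relative position of NDUFA6 is uncertain because of its antisense gene.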

How the results depend on the processing

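With the replicate number as a block, the stricter fit given the inferred centring by number, no fold change moved. The number of subunits called in BL41 went from 2 and 3 to 0 and 0 after X-rays and protons. With trimmed-mean centring, with and without the block, it was also 0 and 0, and with quantile normalization 0 and 1. With a library or number left out the counts lay between 0 and 2 after X-rays and between 0 and 3 after protons. The median over all subunits of BL41 moved from 0.010 and 0.034 to −0.092 and −0.081 with trimmed-mean centring and to −0.084 and −0.080 with quantile normalization, and the nuclear median to −0.114 and −0.091 with trimmed-mean centring. In J3D after protons the median over all subunits moved from 0.010 to −0.027 (trimmed-mean centring) and −0.023 (quantile normalization) and the nuclear median from −0.013 to −0.050 and −0.051. Between protons and X-rays the J3D median over all subunits moved from 0.027 to −0.006 and 0.013, and with libraries left out it lay between 0.001 and 0.034; that of BL41 lay between 0.004 and 0.058. The mitochondrial-genome medians of J3D kept their direction against sham in every alternative, though several alternatives cannot move a fold change. Trimmed-mean centring moves the fold changes of all rows alike, as it subtracts the same value from every row of a library. With it the median of all rows of BL41 moved from 0.093 and 0.120 to −0.010 and 0.004. The cause of the other shifts was not tested.

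Of 124 single values of named genes, 0 of those called changed sign. Values that were not called changed sign in 22 cases with another setting and in 47 with a library or number left out. Trimmed-mean centring, with and without the replicate block, gave −0.012 for SDHB, −0.095 for MT-ND6, −0.010 for MT-CO1, −0.076 for MT-CO3 and −0.093 for UQCRQ in BL41 after protons, −0.083 for MT-CO2, −0.039 for MT-ND6, −0.015 for MT-CO1, −0.035 for MT-ND5, −0.006 for MT-ND1, −0.043 for NDUFA5 and −0.011 for ATP5D in BL41 after X-rays, −0.017 for Sdha, −0.017 for Uqcrh and −0.019 for Uqcr11 in J3D after protons and −0.004 for Ndufb4 and −0.003 for Ndufa9 in J3D after X-rays. Quantile normalization gave −0.015 for MT-ATP6, −0.001 for SDHB, −0.111 for MT-ND6, −0.028 for MT-CO1, −0.015 for MT-ND4, −0.001 for MT-CYB, −0.103 for MT-CO3 and −0.099 for UQCRQ in BL41 after protons, −0.071 for MT-CO2, −0.043 for MT-ND6, −0.020 for MT-CO1, −0.039 for MT-ND5, −0.014 for MT-ND1, −0.045 for NDUFA5 and −0.010 for ATP5D in BL41 after X-rays, −0.049 for Sdha and −0.031 for Uqcr11 in J3D after protons and −0.053 for Ndufb4 in J3D after X-rays. With 1 row per symbol, SDHD of BL41 turned to 0.436 and 0.421, because its 2 lines were averaged. The ranges with a library or number left out follow. In BL41 after protons they ran from −0.071 to 0.005 for ATP5G3, −0.091 to 0.29 for MT-ATP6, −0.25 to 0.11 for MT-ATP8, −0.034 to 0.19 for MT-CO1, −0.11 to 0.16 for MT-CO3, −0.055 to 0.30 for MT-CYB, −0.070 to 0.26 for MT-ND4, −0.081 to 0.31 for MT-ND5, −0.19 to 0.21 for MT-ND6, −0.013 to 0.17 for SDHB, −0.082 to 0.046 for SDHD, −0.19 to 0.009 for UQCRB and −0.054 to 0.14 for UQCRQ. In BL41 after X-rays they ran from −0.15 to 0.054 for ATP5G1, −0.19 to 0.087 for COX8A, −0.17 to 0.34 for MT-ATP6, −0.43 to 0.20 for MT-ATP8, −0.18 to 0.26 for MT-CO1, −0.16 to 0.11 for MT-CO2, −0.039 to 0.30 for MT-CO3, −0.015 to 0.40 for MT-CYB, −0.19 to 0.26 for MT-ND1, −0.14 to 0.42 for MT-ND2, −0.14 to 0.31 for MT-ND4, −0.18 to 0.36 for MT-ND4L, −0.30 to 0.27 for MT-ND5, −0.27 to 0.33 for MT-ND6, −0.042 to 0.16 for NDUFA5, −0.090 to 0.021 for SDHB, −0.23 to 0.80 for UQCR11 and −0.088 to 0.056 for UQCRQ. In J3D after protons they ran from −0.12 to 0.33 for Atp5g1, −0.025 to 0.075 for Sdha, −0.024 to 0.058 for Uqcr11 and −0.024 to 0.091 for Uqcrh. In J3D after X-rays they ran from −0.18 to 0.009 for Atp5d, −0.049 to 0.14 for Atp5g3, −0.19 to 0.018 for Cox8a, −0.12 to 0.11 for Ndufa5, −0.028 to 0.044 for Ndufa9, −0.10 to 0.088 for Ndufb4, −0.32 to 0.060 for Ndufv3, −0.10 to 0.026 for Sdha, −0.081 to 0.068 for Sdhb, −0.13 to 0.063 for Sdhc, −0.084 to 0.10 for Uqcrb and −0.017 to 0.079 for Uqcrh.

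The depth is unknown, and 3 libraries per group with centred values limit what can be called. No filter on low values was possible beyond leaving out rows tied at the lowest value.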
